A study of Homo sapiens with 8 samples.

Results

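The regions described are 398 stretches of the genome that carried a peak of Flag-tagged ARID1A in wild-type (WT) cells, none in cells with the V2084D mutant, and a peak again in mutant cells with knockdown of STUB1. Peaks of both WT lists that overlapped by at least 1 bp were merged into 16157 WT regions. Of these, 7568 overlapped no peak in either V2084D list, and 398 of the 7568 overlapped a peak in both lists of V2084D with STUB1 knockdown (5.26%; exact 95% interval 4.77 to 5.79%). They made up 2.46% of all WT regions. They are called regained regions for this pattern of presence and absence alone. The members were chosen by their peaks in all 6 lists, so presence, fold enrichment and q value in those lists are given as description, with no test.

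ARID1A is a DNA-binding subunit of the SWI/SNF chromatin remodelling complexes, which use ATP to move nucleosomes at promoters and enhancers. It is often mutated in hepatocellular carcinoma and other cancers. STUB1, also called CHIP, is a ubiquitin ligase that works with HSP70 and HSP90 chaperones and marks misfolded client proteins for degradation.

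All cells were Huh7, a human hepatocellular carcinoma line, with the endogenous ARID1A knocked out and a Flag-tagged ARID1A expressed stably from a lentivirus. The groups were V2084D ARID1A with STUB1 knockdown (V2084D_shSTUB1), V2084D ARID1A alone, and WT ARID1A, with 2 anti-Flag ChIP-seq libraries each. The deposited lists held 8904 and 6663 peaks for V2084D_shSTUB1, 6000 and 12384 for V2084D, and 27587 and 26515 for WT. The labels leave unsaid whether both libraries of a group had a culture each and whether the cells were clones, so a p-value between libraries measures only their spread, which may be technical. Read depth is unknown from these files, and all intervals below cover counting error only. Peak lists measure neither RNA nor protein, so cell identity, the knockout, the knockdown and the level of the Flag protein were not checked.

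Promoter windows under 5 of the stronger regained regions are printed first because these regions are among those the results below turn on, and because they show the short, common promoter motifs that were counted over all 198 promoter windows of the set. Each runs from 250 bases before to 50 after an annotated start (RefSeq, GRCh38.p14, the hg38 build of the peak lists), 5′ to 3′ on the gene's strand. Capitals mark matches on either strand to the motifs searched. These are the ETS letters CCGGAAG and the GC box GGGCGG for INO80B (chr2:74454837-74455136, plus strand), and the NRF1 letters (GCGCA, any base, GCGC) for DDX11 (chr12:31073610-31073909, plus strand). For ZNF780A (chr19:40090894-40091193, minus strand) they mark ETS. For RBM25 (chr14:73058284-73058583, plus strand) they mark the YY1 letters AAGATGGC, the CCAAT box, the AP-1 letters TGANTCA and the GC box, and for PDCD10 (chr3:167734843-167735142, minus strand) CCAAT and ETS.
INO80B: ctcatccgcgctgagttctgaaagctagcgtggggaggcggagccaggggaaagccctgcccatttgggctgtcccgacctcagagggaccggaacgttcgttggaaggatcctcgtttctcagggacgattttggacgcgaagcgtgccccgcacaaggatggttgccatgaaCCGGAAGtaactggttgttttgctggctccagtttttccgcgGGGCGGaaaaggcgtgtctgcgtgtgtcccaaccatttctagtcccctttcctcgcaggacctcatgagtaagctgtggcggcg
DDX11: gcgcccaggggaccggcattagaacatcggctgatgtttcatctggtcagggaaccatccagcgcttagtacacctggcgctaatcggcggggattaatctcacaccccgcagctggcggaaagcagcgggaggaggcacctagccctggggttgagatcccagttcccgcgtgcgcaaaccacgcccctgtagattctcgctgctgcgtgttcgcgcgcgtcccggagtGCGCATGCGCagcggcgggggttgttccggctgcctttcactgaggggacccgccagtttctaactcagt
ZNF780A: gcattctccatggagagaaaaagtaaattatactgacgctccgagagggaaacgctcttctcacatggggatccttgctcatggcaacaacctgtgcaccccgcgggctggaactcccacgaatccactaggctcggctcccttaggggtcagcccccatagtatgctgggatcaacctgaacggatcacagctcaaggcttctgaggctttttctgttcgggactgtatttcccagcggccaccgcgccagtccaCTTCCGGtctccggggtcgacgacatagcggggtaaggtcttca
RBM25: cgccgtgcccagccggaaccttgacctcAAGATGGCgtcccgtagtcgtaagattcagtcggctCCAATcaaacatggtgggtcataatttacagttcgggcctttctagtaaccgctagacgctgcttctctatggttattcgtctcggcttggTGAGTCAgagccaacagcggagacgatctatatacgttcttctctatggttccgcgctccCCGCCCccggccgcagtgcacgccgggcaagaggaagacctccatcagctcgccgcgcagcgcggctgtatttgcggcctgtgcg
PDCD10: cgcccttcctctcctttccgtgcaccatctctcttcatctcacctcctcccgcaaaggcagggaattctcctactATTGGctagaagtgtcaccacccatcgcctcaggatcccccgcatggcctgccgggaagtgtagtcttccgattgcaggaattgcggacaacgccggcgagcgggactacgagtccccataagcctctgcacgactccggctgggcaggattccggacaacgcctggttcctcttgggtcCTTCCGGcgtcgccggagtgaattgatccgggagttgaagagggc
The windows are 59.0% G or C for INO80B, 63.0% for DDX11, 56.3% for ZNF780A, 58.3% for RBM25 and 60.3% for PDCD10. All but that of DDX11 are below the lower quartile of the 198 windows, 60.7%, so they are no typical sample of the set's base composition. A match describes letters in the window and does not show a bound factor. DDX11 has near-identical copies in the genome, so the placement of reads on it is uncertain.

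Among regained regions at gene starts, the strongest were at genes with varied roles, among them chromatin regulation and RNA splicing. Strength here is the worst of a region's ranks by q value within the knockdown and WT lists. These lists differ in length, so the worst rank need not belong to the least significant peak. Fold enrichment, the height of a peak over its background as the authors' caller gave it, can be compared between regions within a list but not between lists. The region at INO80B, a subunit of the INO80 remodelling complex (chr2:74454477-74455334), had fold enrichments of 6.93 and 6.06 in V2084D_shSTUB1, against 7.83 and 8.44 in WT. It ranked 306 of 8904 and 369 of 6663 by q value in the V2084D_shSTUB1 lists, near the top of both. The nearest V2084D peaks were 1956 and 2078 bp away.

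RYBP, a subunit of variant Polycomb repressive complex 1, had a regained region 863 bp from its start (chr3:72447168-72448057). Its fold enrichments were 6.05 and 4.89 in V2084D_shSTUB1, against 10.4 and 10.3 in WT. It stood at rank 1796 of 8904 and 3173 of 6663 in the V2084D_shSTUB1 lists, and at rank 591 and 434 in the WT lists. A V2084D replicate 1 peak lay 351 bp outside it.

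Other gene starts among the strongest were those of DDX11, a DNA helicase of sister chromatid cohesion, RBM25, a splicing regulator, PDCD10, a scaffold protein of the cerebral cavernous malformation complex, SCAMP1, a vesicle membrane protein, APBA3, an adaptor protein, and PPP1R3B, a glycogen-targeting subunit of protein phosphatase 1 known from liver. ERVK3-1, NBPF11 and the zinc finger genes ZNF780A, ZNF322 and ZNF678 were also among them. NBPF11 belongs to a family of near-identical copies, so its peak may be shared with other copies. Over the 13 of these regions reported here fold enrichment ran from 4.34 to 7.05 and from 3.67 to 6.23 in the V2084D_shSTUB1 lists, and from 5.81 to 10.4 and from 4.86 to 10.3 in the WT lists.

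Among regions away from gene starts, the strongest lay between genes on chromosome 2 (chr2:61176924-61177747), 14936 bp from the nearest start. Its fold enrichment was 7.09 and 4.41 in V2084D_shSTUB1, against 6.50 and 7.53 in WT. Others were inside PNPLA6, which encodes a lysophospholipase, and PAK1, a kinase that acts downstream of RAC and CDC42. A region between genes on chromosome 1 (starting at 26620140) lay 75332 bp from the start of ARID1A itself, with 3.91 and 4.27 in V2084D_shSTUB1, against 7.04 and 7.40 in WT.

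The order within the knockdown lists was different. The highest rank of any regained region in V2084D_shSTUB1 replicate 2, at 200 of 6663, was inside SSBP3, an adaptor of LDB1 and LIM-domain transcription factors (chr1:54273715-54274378). Its fold enrichment was 7.09 and 6.30 in V2084D_shSTUB1, against 4.06 and 3.06 in WT, where it ranked 14141 and 23343. V2084D peaks lay 281 and 3 bp outside its edges, so its absence from the V2084D lists rests on a few bases. By contrast, the region inside INSR, the insulin receptor gene (chr19:7196970-7198694), had 6.85 and 6.50 in V2084D_shSTUB1, against 4.61 and 4.85 in WT, and its nearest V2084D peaks were 364076 and 302197 bp away.

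Most regained regions were not strong peaks. Their median fold enrichment was 4.30 and 4.25 in the V2084D_shSTUB1 lists, where their median rank was 57.2% and 51.1% of the way down the list. In the WT lists the median fold was 5.30 and 5.06 and the median rank 29.5% and 27.4%. The lists differ in length and chose the members, so these ranks are not compared between groups. In the weaker of its knockdown peaks the median region had a −log10 q of 2.51. In 51 regions (12.8%) that peak had a q over 0.05, because the deposited lists run to q values just under 0.25. With every list limited to peaks of −log10 q of at least 5, 190 regions met the rule, and 17 of these were among the 398. The regions just inside the rule were at AARD, CKLF-CMTM1 and inside PLEC, a cytoskeletal linker gene, each with a weaker knockdown peak of −log10 q 0.735.

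Just outside the rule, a region 4396 bp from the start of IZUMO2 had a fold of 8.35 in V2084D_shSTUB1 replicate 2 and no peak in replicate 1. Those at the starts of SLC4A8, a bicarbonate transporter, and DDX42, an RNA helicase, had 8.86 and 6.26 in V2084D_shSTUB1 replicate 1 and no peak in replicate 2. ANGEL2 and ENTPD2, each with a peak in both knockdown lists, were left out for a V2084D replicate 2 peak of fold 2.39 and 2.88. The −log10 q of these peaks, 0.718 and 0.797, was near the lower limit of that list, 0.602. In all, 1528 regions without a V2084D peak had a peak in 1 knockdown list, and 5642 in neither.

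The share regained grew with the strength of the WT peak. The WT regions were split into 10 bins by the weaker of their WT ranks. From the weakest bin to the strongest, 2.09, 2.56, 3.59, 4.02, 4.23, 7.51, 7.70, 10.02, 13.8 and 17.7% of the V2084D-free regions of a bin were regained. The strongest bin held few V2084D-free regions, with 29 regained, because 10.1% of its regions lacked a V2084D peak, against 74.1% in the weakest bin. Taken over all WT regions of a bin, the regained share ran only between 1.55 and 3.53%. The opposite pattern, present in both V2084D lists and absent from both V2084D_shSTUB1 lists, ran between 1.42 and 3.53%.

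Regained regions were therefore set beside that opposite pattern. It was found in 436 of the 8110 WT regions without a V2084D_shSTUB1 peak (5.38%), against 398 of 7568 for the regained pattern (5.26%). The regained regions were the fewer here, but this order turned with the processing. Regained regions, chosen anew under each setting, were the more numerous in 6 of 9 other settings. Examples are 190 against 73 with −log10 q of at least 5 and 287 against 215 with 50% overlap. Of the 398, 17 and 143 stayed regained in these settings, in that order. A cut in every list drops weak peaks of both mutant groups, so it can create either pattern. Regained regions were the fewer in 3 settings, for example 399 against 453 when a mutant peak within 500 bp also covered. Another of the 3, with −log10 q of at least 2 in the knockdown lists (269 against 566), thinned those lists alone. That cut could only lower the regained count and raise the opposite one, so its direction was fixed in advance. The V2084D_shSTUB1 lists covered 41.5 and 31.5% of the 16157 WT regions (36.5 ± 7.12%, SD, n = 2), and the V2084D lists 27.7 and 46.8% (37.2 ± 13.5%, SD, n = 2). The difference of -0.73 percentage points was smaller than the spread between replicates (two-sided exact permutation test, p = 1; 0.333 is the smallest p this design can give).

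Because the rule uses all 4 mutant lists, a further comparison chose WT regions with 1 list of each mutant group (a peak in V2084D_shSTUB1, none in V2084D) and read the lists left out. Chosen with both replicates 1, 40.5% of 3502 regions had a peak in the left-out V2084D_shSTUB1 list and 59.3% in the left-out V2084D list. Chosen with V2084D replicate 1 and V2084D_shSTUB1 replicate 2, the shares of 2352 regions were 60.4% in V2084D_shSTUB1 and 61.7% in V2084D. Chosen with V2084D replicate 2 and V2084D_shSTUB1 replicate 1, the shares of 1896 regions were 32.8% in V2084D_shSTUB1 and 24.9% in V2084D. Chosen with both replicates 2, the shares of 1255 regions were 49.5% in V2084D_shSTUB1 and 28.3% in V2084D.
The left-out knockdown list was higher in the pairs that left out V2084D replicate 1 and lower in those that left out V2084D replicate 2. All WT regions gave the same signs, with differences of -15.3, -5.25, 3.79 and 13.9 percentage points, against -18.8, -1.36, 7.86 and 21.2 in the chosen regions. Regions chosen the other way, with a peak in V2084D and none in V2084D_shSTUB1, gave -24.1, -10.7, -0.219 and 16.6 for the same left-out pairs. The 4 pairings reuse the same lists and are not replicates, so no p-value is given.

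Most regained regions were at gene starts, a position the rule did not use, in a share close to that of all WT regions. A protein-coding gene start lay within 1000 bp of the WT summit in 248 of the 398 (62.3%; exact interval 57.3 to 67.1%), against 52.8% of the 7170 V2084D-free regions that were not regained (51.6 to 53.9%) and 71.3% of the 2108 regions kept in all lists. It was 60.8% over all WT regions, inside the interval of the regained share, and 67.9% in the opposite pattern. Another 59 (14.8%) were inside a gene away from its start and 91 (22.9%) between genes, against 22.8% and 24.4% of the regions not regained. Stronger WT regions are more often at gene starts. Weighted to the WT strengths of the regained regions, 59.9% of the regions not regained were at a start, which lies inside the interval of the regained share.

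Regained regions were wider and closer to mutant peaks than the other V2084D-free regions, without matching for WT strength. Their median width was 964 bp (331 to 3609 bp), against 742 bp in V2084D-free regions not regained, 1018 bp in the opposite pattern and 903 bp in all WT regions, so the width is not particular to them. The nearest V2084D peak lay at a median of 26014 bp, against 44378 bp in V2084D-free regions not regained, and within 500 bp in 35 of the 398 (8.79%), against 5.58%. For PDCD10 it was 25 bp away and for NDUFA11, a complex I subunit, 40 bp. Knockdown summits lay a median of 140 and 130 bp from the WT summit, against 104 and 108 bp in regions kept in all lists, and the knockdown peaks were 439 and 380 bp wide. Another WT region lay within 10 kb of 147 regained regions (36.9%), against 36.2% of those not regained. In 4 of the 398 (1.01%), the pairs at AK4 and at PKMYT1, the nearest such neighbour was itself regained. In the other classes of WT regions that share ran from 0.459%, in the opposite pattern, to 1.05%, in V2084D-free regions with a peak in 1 knockdown list. A lack of regained neighbours is thus not particular to the set.

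By chromosome the set was uneven. Chromosome 1 held 52 regained regions (13.1%), against 7.003% of all V2084D-free regions, and chromosome 19 held 43 (10.8%), against 7.28%. The V2084D_shSTUB1 lists as a whole held 16.5 and 18.1% of their peaks on chromosome 1 and the V2084D lists 18.6 and 17.6%, against 10.02 and 9.72% in the WT lists, and 27 regions of the opposite pattern lay there. The part of this in the share of regained regions was not tested. Chromosome 18 held 1 of its 154 V2084D-free regions. A stretch of chromosome 1 from 29 to 56 Mb held 10 of the 52. In that stretch only 31 of 314 WT regions lacked a V2084D peak, and 10 of these 31 (32.3%) were regained. They were at the starts of SDC3, a syndecan, AZIN2, PPT1, a lysosomal thioesterase, RNF11 and TTC4, inside COL16A1 and SSBP3, and between genes, and 1 region there had the opposite pattern. V2084D peaks of both lists lay close to several of them, at 345 and 189 bp for SDC3, 294 and 238 bp for RNF11, and 281 and 3 bp for SSBP3. In 3 other stretches examined, the regained were 1 of 10 and 0 of 3 V2084D-free regions on the long arm of chromosome 1. In the first 10 Mb of chromosome 6 they were 2 of 17. All these stretches were examined with earlier results of these data known. Few WT regions lacked a V2084D peak in the last 3 as well (10 of 81, 3 of 18 and 17 of 75). The mutant lists, dense there, are those the rule uses, so 32.3% is no independent sign of local regain.

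The promoters under regained regions had base composition and motif shares close to those of other V2084D-free regions. The 198 regained promoter windows had a median GC content of 66.3%, against 67.3% in 2846 windows of regions not regained and 62.3% in all 22078 windows. The GC box was in 72.7% of regained windows, 76.7% of those not regained and 56.3% of all. CCAAT was in 38.4, 35.6 and 34.7% in that order, the ETS letters in 17.7, 18.4 and 12.8%, and the NRF1 letters in 13.1, 11.3 and 7.33%. The YY1 letters AAGATGGC, as at RBM25, were in 7.58% of regained windows, 5.24% of those not regained and 3.54% of all, and the AP-1 letters in 3.54, 3.62 and 6.16%. In these windows the searched motifs thus differed more between regained and all promoters than between regained and other V2084D-free promoters. No motif share was tested.

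At the level of genes, 515 of the 6962 protein-coding genes with a V2084D-free WT region within 10 kb had a regained region there (7.4%), which is the background for the counts that follow. These 515 were 2.57% of all 20056 protein-coding genes, and 578 genes had a region of the opposite pattern within 10 kb. By list, the opposite pattern was as frequent or more so for remodellers (4), oxidative phosphorylation (4) and TGF-beta (5), for example. It was the rarer, for example, for Polycomb (2), cell cycle and replication (2), receptor kinases (1) and AP-1 genes (0). The rule fixes these counts, and no share of a list was tested. Some members in several lists rest on a weak knockdown peak. The −log10 q of the weaker knockdown peak was 0.84 for NDUFV2, 0.977 for HNRNPH3, 1.13 for ETV4 and 1.25 for CDK2. It was 1.27 for PHF19 and DNAJC3, against a median of 2.51 over all regained regions. Chromatin genes come first. Of 31 SWI/SNF subunit genes, 19 had a V2084D-free region and 1 a regained one, at the start of BCL11A, an accessory subunit and blood-cell repressor. It had 4.22 and 4.69 in V2084D_shSTUB1, against 7.12 and 5.10 in WT. INO80, SRCAP, CHD and ISWI remodeller genes gave 4 of 22, which were INO80B, CHD2, RUVBL1 and VPS72, the last through a region inside PIP5K1A. In the weaker knockdown peak −log10 q was 0.763 for CHD2 and 1.19 for VPS72, against 2.18 for RUVBL1 and 9.41 for INO80B. Polycomb genes gave 3 of 22, at the starts of PCGF1, PHF19 and RYBP. PCGF1 had 3.75 and 4.72 in V2084D_shSTUB1, against 2.80 and 3.66 in WT, where it was in the weakest bin, and V2084D peaks stood 504 and 234 bp from it. KMT2 and KDM enzymes gave 1 of 17, at KDM6A, an H3K27 demethylase gene.

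Cell cycle and replication genes gave 6 of 33. At the start of CDK1, the mitotic kinase (chr10:60777999-60779042), fold enrichment was 4.09 and 4.82 in V2084D_shSTUB1, against 5.75 and 10.9 in WT, and the nearest V2084D peaks were 1168570 and 164261 bp away. A region 1334 bp from the start of CCND2, which encodes cyclin D2, had 4.65 and 4.82 in V2084D_shSTUB1, against 5.91 and 5.69 in WT. A further region lay 5725 bp from CDC25B, a phosphatase that activates CDK1, and another 231 bp from the gene body of RB1. The RB1 region was counted as away from a start, because the nearest start used, that of ITM2B, lay at 33163 bp. The remaining members came through the starts of TAF8 and RAB5B, which neighbour CCND3 and CDK2. At those last starts the gene of the list cannot be told apart from its neighbour.

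Receptor kinase and MAPK feedback genes gave 4 of 22. DUSP6, a phosphatase that turns off ERK, had 3.91 and 4.41 in V2084D_shSTUB1 at its start, against 5.63 and 5.10 in WT. ETV4, an ETS factor, and INSR were also among the members. AP-1 and immediate early genes gave 3 of 17, MAFF at its start, NR4A1 inside the gene and ATF3 at 6228 bp. YAP, TEAD and Hippo genes gave 2 of 16, PTPN14 and VGLL4. The p53 targets gave 1 of 12, TP53I3, and TGF-beta and mesenchymal genes 1 of 22, a region 7527 bp from ID1.

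Of the liver lists, transcription factors gave 1 of 17, at the start of FOXA1, a pioneer factor of liver (chr14:37594413-37595766), with 4.32 and 3.82 in V2084D_shSTUB1, against 5.60 and 3.16 in WT. Of 52 genes of hepatocyte products and enzymes, 4 had a V2084D-free WT region and 1, ASS1 of the urea cycle, was regained. Its fold enrichment was 2.98 and 2.79 in V2084D_shSTUB1, against 4.36 and 3.23 in WT. Both knockdown peaks of ASS1 were weak, with −log10 q of 0.877 and 1.14. They stood near the end of their lists, at rank 8802 of 8904 and 6351 of 6663. Of 28 markers of fibroblast, endothelial and blood cells, 2 of 7 were regained by distance alone, CD14 through the start of TMCO6 and HBA1 through that of HBQ1.

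Housekeeping lists lay near the background share. Ribosomal protein genes gave 3 of 44, RPL11, RPL26 and RPS16, the last through the start of SUPT5H, an elongation factor gene. Oxidative phosphorylation genes gave 3 of 35 (NDUFA11, NDUFA2 through the start of TMCO6 and NDUFV2 through that of ANKRD12), RNA polymerase II and elongation genes 2 of 24 (POLR2G and SUPT5H), SRSF and HNRNP splicing factors 1 of 16, at HNRNPH3, and chaperones and ubiquitin partners of STUB1 2 of 25. The last were DNAJC3, a co-chaperone of the endoplasmic reticulum, and HSPB1, a small heat shock protein with a regained region 348 bp from its start, where fold enrichment was 5.44 and 3.91 in V2084D_shSTUB1, against 5.81 and 5.69 in WT. A V2084D replicate 2 peak lay 325 bp outside this HSPB1 region, which was no longer regained when a mutant peak within 500 bp also covered. Genes named ZNF, mostly zinc finger repressors, gave 19 of 191 (9.95%), and those on chromosome 19 gave 10 of 75. Counted as starts, 11 of 124 V2084D-free ZNF starts were regained (8.87%; exact interval 4.51 to 15.3%), against 6.07% of the 3907 other V2084D-free starts, which lies inside that interval.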

How the data were processed

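Peaks of anti-Flag ChIP-seq in 6 libraries were used. The submitters' processing notes name MACS2, Bowtie2, Trimmomatic, Picard, SAMtools, deepTools and bedtools and the build hg38. Their versions and settings, and any control for peak calling, are not stated in these sources. Peak names show that the authors called peaks per library. The deposited lists give a fold enrichment (a ratio), −log10 p and −log10 q, a score and the summit position of each peak; these are the authors' values and served only to rank, filter or describe peaks inside 1 list. Input libraries were not used.

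From these, WT peaks overlapping by at least 1 bp were merged, and each region was marked by overlap with the mutant lists. Gene starts came from RefSeq GRCh38.p14. For 15843 of 20056 protein-coding genes these were the starts of promoter windows; for the other 4213 both annotated ends were used. A region was at a start within 1000 bp of its WT summit and near a gene where any part of it lay within 10000 bp of the gene body. Named regions were the 15 strongest at a start, the 8 strongest elsewhere, those just inside and outside the rule, those closest to a V2084D peak, and all members of 18 gene lists; those for SSBP3 and INSR as strong knockdown peaks were chosen after their values were seen. Some regions that this rule names are not reported here. The members, lists and chromosome stretches were chosen with earlier results of these data known. Intervals are exact binomial intervals. Libraries were compared by exact permutation over 6 arrangements. Classification was tested on simulated peak lists. Alternatives covered overlap, peak thresholds, list length, gene distance and left-out libraries. Python 3.11.15, numpy 2.4.6, pandas 2.3.3 and scipy 1.17.1 were used.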

Additional observations from a re-analysis of the deposited data

How the results depend on the processing

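The number of regained regions, 398, was 190 with −log10 q of at least 5, 157 with fold of at least 5 and 143 with lists of equal length, and 454 to 1424 with a library left out. It was 621 without V2084D replicate 1, 1420 without V2084D replicate 2, 900 without V2084D_shSTUB1 replicate 1 and 1424 without V2084D_shSTUB1 replicate 2. Leaving out a mutant library drops a condition of the rule, so these counts could only rise and are no measure of instability. The members changed more than the number: 17 of the 398 were regained at −log10 q of at least 5 and 18 at fold of at least 5, 8 stayed regained in at least 8 of 9 settings that keep all libraries, and 3 in all 9 (INO80B, ERVK3-1 and a region between genes on chromosome 1). The share of V2084D-free regions, 5.26%, was 3.88% with 50% overlap. It was 4.50% with −log10 q of at least 5 and 4.48% with fold of at least 5. With −log10 q of at least 2 in the knockdown lists, a cut that could only lower it, the share was 3.55%. It was 15.3% with all lists of equal length and 4.63% with mutant lists of equal length (2.64 to 18.8% with a library left out). The coverage difference, V2084D_shSTUB1 minus V2084D, of -0.73 points reversed to 0.99 with 50% overlap, 1.10 with summits within 200 bp, 5.44 with −log10 q of at least 5, 3.34 with fold of at least 5, 3.56 with all lists of equal length and 1.61 with mutant lists of equal length (-10.3 to 8.82 with a library left out). With the replicate number as a block it was -0.73 (exact permutation within blocks, p = 1). Peak presence in same-numbered knockdown and V2084D lists did not deviate together over the WT regions (correlation -0.0457). With so few replicates and the WT lists not checked, this value cannot exclude a batch shared by replicate number. The mean left-out difference, 2.23, ran from -3.49 to 12.7. The lowest value came with −log10 q of at least 2 in the knockdown lists, a cut of those lists alone. The highest came with −log10 q of at least 5 in every list. Over all WT regions the difference moved too, from -0.73 to -5.14 and 5.44 in those settings. The share at gene starts, 62.3%, was 76.8% (−log10 q), 75.2% (fold), 76.9% (equal length), 34.9% within 200 bp, 70.6% within 5000 bp and 52.3% with promoter-table starts alone, an alternative chosen after seeing the data (57.8 to 65.6% with a library left out). The median WT fold, 5.18, was 5.60 (50% overlap), 5.58 (summits), 7.11 (−log10 q), 7.17 (fold), 5.41 (knockdown q), 6.87 and 5.45 (equal lengths), and 4.95 to 5.61 with a library left out. List members with a regained region numbered 41, against 63 within 50000 bp. The causes of these shifts were not tested.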

Other observations

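Genes for transfer RNAs, which RNA polymerase III transcribes, lay within 1000 bp of 8 of the 398 regained regions (2.01%; exact interval 0.872 to 3.92%). The share was 1.31% in the 1528 V2084D-free regions with a peak in 1 knockdown list, inside that interval, 0.479% in the 5642 absent from all mutant lists, 3.18% in regions kept in all lists and 0.459% in the 436 regions of the opposite pattern. In the remaining 6045 WT regions, with mixed presence in the mutant lists, it was 0.910%, also inside that interval. The 8 were near TRD-GTC1-1, TRR-ACG1-3, TRK-CTT1-1, TRL-TAG3-1, TRG-GCC2-2, TRQ-CTG5-1, TRG-GCC2-3 and TRE-CTC1-7. The strongest knockdown fold among them in V2084D_shSTUB1 replicate 1 was 5.14 at TRG-GCC2-2, against 5.29 and 5.53 in the WT lists. Transfer RNA genes are repeated in the genome, so the placement of reads on them is uncertain, and the share was not tested.

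Of the regained and the opposite pattern together, regained regions made up 47.7%. The share was 57.2% with 50% overlap, 54.3% by summits, 72.2% at −log10 q of at least 5, 64.9% at fold of at least 5, 60.9% with all lists of equal length and 55.4% with mutant lists of equal length. Among the mutant lists, equal length shortened V2084D replicate 2 the most, from 12384 peaks to 6000. It was 46.8% when a mutant peak within 500 bp also covered, 48.5% on assembled chromosomes alone and 32.2% at −log10 q of at least 2 in the knockdown lists.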
